A study of Homo sapiens with 2 samples.

Results

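The mRNAs of 10 genes whose proteins control how long PD-L1 persists in a cell were followed in MDA-MB-231 cells with and without depletion of RBMS1. The genes were chosen by name for their known action on PD-L1 protein and found by their GENCODE symbol among the 49627 genes listed in the libraries. All 10 were measured, and all 10 were among the 11186 genes with a mean of at least 1 FPKM, a unit of abundance that divides the fragments of a transcript by its length and by the size of the library. CMTM6, CMTM4, OTUB1, COPS5 and USP22 are held to stabilize PD-L1, and GSK3B, BTRC, STUB1, SPOP and HIP1R to promote its degradation. The question was whether the mRNA of either set differed upon RBMS1 depletion.

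MDA-MB-231 cells derive from a human breast cancer without hormone receptors or HER2 amplification. One RNA-seq library was made from cells labelled as RBMS1 knockdown and 1 library from their control, both from total RNA of cells grown in L15 medium with serum and without carbon dioxide. The study's methods describe the knockdown cells as stable lines, infected with lentiviral shRNA in the pLKO.1 plasmid and selected with puromycin, with empty pLKO.1 as the negative control. The labels do not say which shRNA was used, so the effect of 1 shRNA and the effect of losing RBMS1 cannot be told apart here, and they name no cytokine treatment. Since each group had a single library, there was no replicate, no standard deviation and no test, and each comparison describes these 2 libraries.

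RBMS1, an RNA-binding protein and the targeted gene, stood at 3.76 FPKM upon RBMS1 depletion and 24.1 FPKM in the control, or 15.6% of control. Most marker genes were as usual for this line. VIM, CD44, AXL and CAV1, usually high in this line, lay between 153.9 and 495.7 FPKM upon RBMS1 depletion and between 112.1 and 563.5 FPKM in the control, and all 6 leukocyte, endothelial and fibroblast genes checked were under 1 FPKM in both. Of 5 luminal or hormone receptor genes, usually low, ESR1, PGR and CDH1 were under 1 FPKM, while GATA3 was at 2.11 and 1.56 FPKM and EPCAM at 1.93 and 3.66 FPKM upon RBMS1 depletion and in the control. Read depth was unknown, but coverage per FPKM was 1.09 times as high in the RBMS1-depleted library as in the control, so low genes were measured with nearly the same precision.

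PD-L1, encoded by CD274, is a glycosylated membrane ligand that restrains T cells through PD-1. Its amount at the cell surface depends on transcription and also on what happens to the protein afterwards. Underglycosylated PD-L1 can be phosphorylated by GSK3β and handed to the SCF ubiquitin ligase through β-TrCP, the product of BTRC. The ligases STUB1 and SPOP also mark PD-L1 for degradation, the deubiquitinases OTUB1, USP22 and COPS5 remove ubiquitin from it, the membrane proteins CMTM6 and CMTM4 keep it from the lysosome, and HIP1R directs it there.

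The 5 sequences below tell apart the transcripts on which the results turn. They were read from the GENCODE release 29 transcripts on GRCh38 and are written 5′ to 3′ on the strand of the gene. The first is the end of the coding region of CMTM4-202, at chr16:66622058-66622087 on the minus strand, with its stop codon in capitals. It is the coding end held by the transcript assembled for CMTM4 in both libraries, and its last 4 bases lie past the splice site that CMTM4-201 uses to reach its own last exon.
CMTM4-202 coding end: cgccctgagatccagcgcctggacacgTGA

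The BTRC exon at chr10:101430345-101430452 on the plus strand is present in BTRC-202 and absent from BTRC-204. Its 108 bases keep the reading frame and add 36 codons, which is the difference between coding regions of 605 and 569 codons. No base of it is singled out.
BTRC-202 exon: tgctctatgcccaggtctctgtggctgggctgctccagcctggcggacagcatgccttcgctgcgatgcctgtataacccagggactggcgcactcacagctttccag

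STUB1 is shown by a coding stretch and an intron, because its 3 transcripts above 0 differ in these. The coding part of exon 1 of STUB1-201, at chr16:680526-680684 on the plus strand, holds the start codon, given in capitals. STUB1-204 begins downstream of it and has 231 codons in place of 303. Intron 4, at chr16:681881-682019, is removed from STUB1-201 and STUB1-204 and kept in STUB1-202, which ends 47 bases into the next exon. The splice-site dinucleotides of this intron are in capitals.
STUB1-201 first coding segment: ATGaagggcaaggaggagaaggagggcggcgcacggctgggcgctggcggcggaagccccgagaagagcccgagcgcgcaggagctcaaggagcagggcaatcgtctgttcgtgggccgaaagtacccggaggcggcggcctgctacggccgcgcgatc
STUB1-202 kept intron: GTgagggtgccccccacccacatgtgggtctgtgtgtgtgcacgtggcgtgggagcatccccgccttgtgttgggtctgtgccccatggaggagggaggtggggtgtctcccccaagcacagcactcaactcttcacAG

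For SPOP the stretch is a 60-base exon at chr17:49618504-49618563 on the minus strand, which GENCODE holds in SPOP-216, a transcript annotated as a target of nonsense-mediated decay. Placed after the 480 coding bases that precede it, the exon opens in frame, and its sixteenth base begins a TGA stop codon, in capitals, that becomes codon 166. The usual coding region of SPOP has 374 codons.
SPOP 60-base exon: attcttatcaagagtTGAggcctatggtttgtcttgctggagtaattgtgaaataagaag

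Across the 10 genes the levels of both libraries lay close together, with CMTM4 as the gene that differed most. The log2 ratio used here is the log2 of (FPKM + 1) in RBMS1-depleted cells over (FPKM + 1) in control cells, which understates differences of low genes. It was positive for 8 genes and negative for 2, with a median of 0.12. Over the 11186 genes the median was 0.02, with 52.8% of the ratios positive. The count for the 10 genes depended on the transcripts taken. From the leading reference transcript of each gene 6 were positive and 4 negative, with a median of 0.03. From transcripts with a whole coding region 5 were positive and 5 negative, with a median of −0.002. None of the 10 genes differed at least 2-fold on this scale, against 5.76% of all genes. With 0.1 FPKM added in place of 1 FPKM, 1 of the 10 did, CMTM4, against 7.87% of all genes.

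Cufflinks, which produced the values, gives each transcript an interval for the uncertainty within its library. Summed over the transcripts of a gene, these intervals lay apart and higher in RBMS1-depleted cells for CMTM6 and STUB1, against 13.3% of all genes. They lay apart and lower for CMTM4, against 11.5% of all genes. For the other 7 genes they overlapped. Under each of 3 other scalings of the libraries the intervals of STUB1 overlapped too, with lower bounds of 30.3 to 30.5 FPKM upon RBMS1 depletion and an upper bound of 30.9 FPKM in the control, while CMTM6 and CMTM4 stayed apart. Transcripts listed at 0 FPKM add their upper bounds to these sums, which widens the interval of a gene with many annotated transcripts. COPS5 and USP22 each had 1 transcript above 0, COPS5-201 and USP22-201. The intervals of these transcripts alone lay apart and higher in RBMS1-depleted cells on the scale as deposited. Their bounds and the other scalings are given below. An interval within a library says nothing of the spread between cultures.

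The order of the levels was much the same in both libraries. USP22 had the highest value of the 10, at 40.8 FPKM in RBMS1-depleted and 37.0 FPKM in control cells, although its interval overlapped that of STUB1 in RBMS1-depleted cells. In control cells STUB1, OTUB1 and CMTM6 followed with overlapping intervals, then COPS5, then SPOP and HIP1R, which overlapped, then GSK3B, and last CMTM4 and BTRC, which overlapped. In RBMS1-depleted cells STUB1 also overlapped CMTM6, CMTM6 came before OTUB1 with intervals apart, OTUB1 and COPS5 overlapped, SPOP and HIP1R were apart, and CMTM4 took the tenth place with an interval below that of BTRC.

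CMTM6 (ENSG00000091317, chr3:32481312-32503408, minus strand) encodes a membrane protein that binds PD-L1 and protects it from lysosomal degradation. It was at 29.9 FPKM upon RBMS1 depletion, with an interval from 28.4 to 31.6 FPKM, and at 24.6 FPKM in the control, with an interval from 23.3 to 26.1 FPKM. The level was thus 122% of control, at a log2 ratio of 0.27, and 36.3% of all genes had a ratio as far from 0. All of its FPKM was in the coding transcript CMTM6-201. CMTM7, which shares 1756 bases with CMTM6 on the opposite strand, stood at 11.0 and 10.3 FPKM.

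CMTM4 (ENSG00000183723, chr16:66614750-66696707, minus strand), the closest relative of CMTM6 in this role, went the other way. Its level was 2.02 FPKM upon RBMS1 depletion, with an interval from 1.74 to 2.54 FPKM, and 4.41 FPKM in the control, with an interval from 3.96 to 5.13 FPKM. RBMS1-depleted cells thus had 45.7% of the control level, at a log2 ratio of −0.84. Of all genes, 7.12% had a ratio at least as far from 0, and CMTM4 ranked 385 from the lowest of 11186. B4GALT1, a galactosyltransferase of N-glycans and the gene the study ties to PD-L1 glycosylation, was at 45.3% of control.

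Both transcripts that made up CMTM4 were lower. CMTM4-205, a single stretch of 7026 bases from the 3′ part of the gene that is annotated as a retained intron, was at 1.05 FPKM upon RBMS1 depletion and 2.27 FPKM in the control. The other was assembled by Cufflinks with 4 exons, the introns of CMTM4-202 and a last exon of 7583 bases in RBMS1-depleted and 7464 bases in control cells. It was at 0.970 and 2.14 FPKM, or 45.2% of control. The intervals lay apart for both. CMTM4-205 held 51.9% of the gene's FPKM upon RBMS1 depletion and 51.4% in control cells, nearly the same balance in both. However, CMTM4-205 lies almost wholly within the last exon of the assembled transcript in each library. Cufflinks divides the reads of that stretch between them, so their values and shares are not independent observations.

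The annotated coding transcripts CMTM4-201 and CMTM4-202 are listed at 0 in the Cufflinks files of both libraries, while the authors' separate table of their own comparison gives them values. In that table CMTM4-201 was at 3.03 FPKM in RBMS1-depleted and 7.05 FPKM in the control, and CMTM4-202 at 1.58 and 4.23 FPKM. Together they came to 40.8% of control. The table has its own scale and keeps only transcripts with a p-value of at most 0.05 in the authors' comparison, so the presence of CMTM4 in it was selected on the difference. Both sources come from the same reads and give the same direction.

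CMTM6 and CMTM4 can act in place of each other on PD-L1. Their summed level was 32.0 FPKM upon RBMS1 depletion and 29.0 FPKM in the control. CMTM4 made up 6.31% of that sum in RBMS1-depleted cells and 15.2% in control cells, and CMTM6 exceeded CMTM4 by 14.9 and 5.57 times. The sum was therefore led by CMTM6 in both libraries. Of the CMTM4 value, 51.9% upon RBMS1 depletion and 51.4% in the control was in CMTM4-205, which has no annotated coding region. Counting only transcripts with a whole coding region, CMTM4 was at 0.970 and 2.14 FPKM, beside CMTM6 at 29.9 and 24.6 FPKM.

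OTUB1, COPS5 and USP22 remove ubiquitin from PD-L1. OTUB1 (ENSG00000167770, chr11:63985853-64001811, plus strand) was at 24.8 FPKM in RBMS1-depleted and 24.6 FPKM in the control, a log2 ratio of 0.01, all of it in OTUB1-209. The authors' table of transcripts chosen by p-value, described above, lists another, OTUB1-202, at 0.568 and 0.0576 FPKM. This was the gene of the 10 with the least difference, and the sign of its ratio turned negative under each of 3 other scalings of the libraries. USP22 (ENSG00000124422, chr17:20999593-21043760, minus strand), also the deubiquitinase of the SAGA coactivator, had a log2 ratio of 0.14. The intervals of the USP22 gene overlapped. Those of its coding transcript USP22-201, which held all of its FPKM, ran from 38.9 to 42.7 and from 35.2 to 38.8 FPKM, and they overlapped under each of the 3 other scalings. In the authors' table USP22-206 was at 0.112 FPKM upon RBMS1 depletion and is listed at 0 in the control.

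COPS5 (ENSG00000121022), the catalytic subunit of the COP9 signalosome, is located at chr8:67043079-67083783 on the minus strand. Its level was 23.0 FPKM in RBMS1-depleted and 19.4 FPKM in the control, a log2 ratio of 0.23. The interval of COPS5-201, which held all of its FPKM, ran from 21.3 to 24.6 and from 17.9 to 20.9 FPKM, and it overlapped under 2 of the 3 other scalings, as the intervals of the whole gene did on the scale as deposited. COPS5, USP22 and CMTM6 were all higher in RBMS1-depleted cells, CMTM6 the most. Summed over the 5 stabilizers, RBMS1-depleted cells had 120.5 FPKM and control cells 110.1 FPKM, or 109.5% of control, and the median log2 ratio was 0.14.

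**Figure D1:**
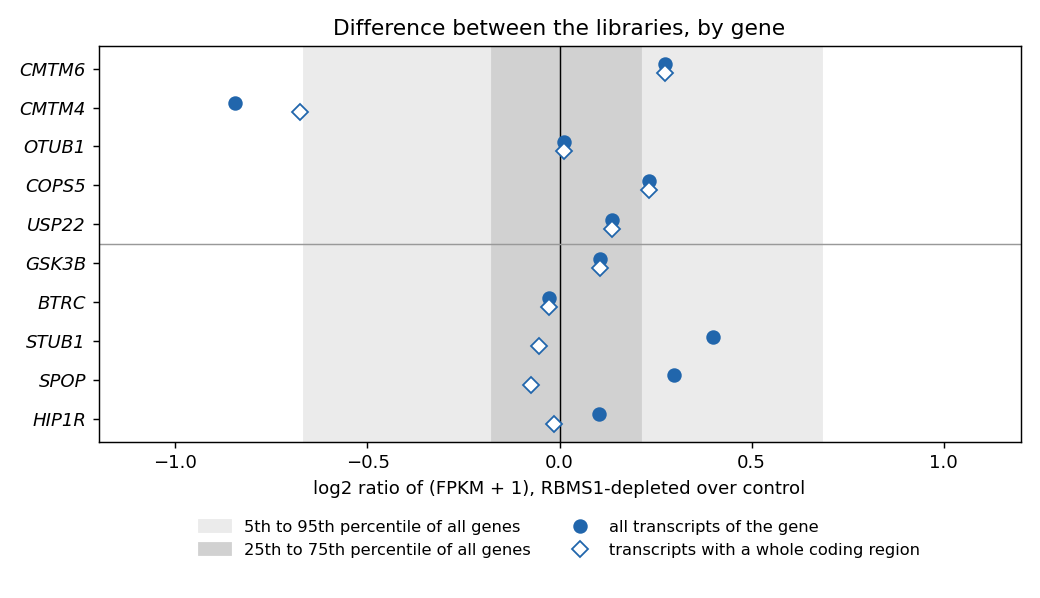
Log2 ratio of (FPKM + 1), RBMS1-depleted over control, for the 10 genes, from all transcripts (filled circles) and from transcripts with a whole coding region (open diamonds); grey bands span the 5th to 95th and the 25th to 75th percentile of all genes. The bands were made from all transcripts of each gene. The circle of CMTM4, at −0.84, lies below the 5th percentile of −0.67, and its diamond, at −0.67, lies at that edge. The circles of STUB1 and SPOP, at 0.40 and 0.30, are paired with diamonds at −0.05 and −0.07.

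The degraders begin with GSK3B and BTRC, which act in sequence. GSK3B (ENSG00000082701, chr3:119821323-120094417, minus strand), the kinase that phosphorylates underglycosylated PD-L1, was at 7.43 FPKM in RBMS1-depleted and 6.84 FPKM in the control, a log2 ratio of 0.10, all in GSK3B-201. BTRC (ENSG00000166167, chr10:101354033-101557321, plus strand), whose product recognizes the phosphorylated protein, was at 3.50 and 3.59 FPKM, and its log2 ratio was −0.03. Both differed by less than their intervals.

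Within BTRC the balance of transcripts differed more than the gene. BTRC-202, with the 36-codon exon printed above, was at 1.60 FPKM in RBMS1-depleted cells (interval 1.40 to 1.79) and 1.25 FPKM in the control (1.07 to 1.43). BTRC-204, without it, was at 1.90 and 2.35 FPKM. The share of BTRC-202 was thus 45.7% in RBMS1-depleted and 34.7% in control cells, although for both transcripts the intervals of the libraries just overlapped. Those of BTRC-204 lay apart under the 3 other scalings.

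STUB1 (ENSG00000103266, chr16:680224-682870, plus strand), the ligase also known as CHIP, had the highest ratio of the 10 genes. It was at 35.6 FPKM upon RBMS1 depletion, with an interval from 31.0 to 41.0 FPKM, and at 26.7 FPKM in the control, with an interval from 23.6 to 30.9 FPKM. The level was 133% of control and the log2 ratio 0.40, a size that 23.0% of all genes reached.

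The excess of STUB1 lay in a transcript with no annotated coding region. STUB1-202, which keeps the intron printed above, was at 9.89 FPKM upon RBMS1 depletion and is listed at 0 in control cells. STUB1-204 was at 18.2 and 17.6 FPKM, and STUB1-201, with the full coding region, at 7.49 and 9.06 FPKM, with overlapping intervals. These 2 coding transcripts summed to 96.2% of control. A value of 0 from Cufflinks can mean that the reads were given to other transcripts, so it does not show that the control cells lacked STUB1-202. In the authors' table the coding transcript STUB1-208 was at 0.797 FPKM upon RBMS1 depletion and is listed at 0 in the control, while the Cufflinks files list it at 0 in both.

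Another gene crosses the same stretch. JMJD8 runs on the opposite strand, and the exons of its transcript JMJD8-201 hold all 139 bases of the kept STUB1 intron. JMJD8-201 was at 5.13 FPKM in RBMS1-depleted and 6.65 FPKM in the control. Whether the libraries keep strand is not given in the sources used here, so reads from this stretch cannot be assigned to either gene by strand, and their part in the STUB1 value was not tested.

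SPOP (ENSG00000121067, chr17:49598884-49678234, minus strand), the substrate adaptor of a CUL3 ligase, was at 14.1 FPKM in RBMS1-depleted cells (interval 11.9 to 18.7) and 11.3 FPKM in the control (10.1 to 15.0), 125% of control with overlapping intervals. Here too the transcripts differed between the libraries. A transcript with the 60-base exon printed above was assembled in RBMS1-depleted cells, at 3.43 FPKM or 24.3% of the gene, and none was assembled in control cells. SPOP-216 itself is listed at 0 in both libraries. With that transcript left out, SPOP was at 10.6 and 11.3 FPKM, or 94.5% of control.

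The remaining SPOP transcripts, all with the whole coding region, were divided differently in each library. RBMS1-depleted cells had SPOP-201 at 2.79 FPKM, SPOP-202 at 2.31 FPKM and 2 further assembled transcripts at 3.10 and 2.45 FPKM. Control cells had SPOP-202 at 3.61 FPKM, 1 assembled transcript at 7.66 FPKM and SPOP-201 listed at 0. In the authors' table, by contrast, SPOP-201 was at 9.78 FPKM in RBMS1-depleted and 5.13 FPKM in the control, so the listing at 0 was not repeated there. Single SPOP transcripts are therefore uncertain. SPOP-202 alone gave a log2 ratio of −0.48, and SPOP-201 and SPOP-202 together 0.40, against 0.30 for the gene.

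HIP1R (ENSG00000130787, chr12:122834453-122862960, plus strand), an adaptor that carries PD-L1 to the lysosome, was at 9.72 FPKM in RBMS1-depleted and 8.99 FPKM in the control, a log2 ratio of 0.10 with overlapping intervals. Its coding transcript HIP1R-201 was at 7.18 and 7.26 FPKM. HIP1R-204, annotated as a retained intron, was at 2.54 FPKM in RBMS1-depleted cells (interval 2.19 to 2.89) and 1.72 FPKM in the control (1.42 to 2.02). The higher total of HIP1R thus lay in the transcript without a coding region.

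Summed over all transcripts, the 5 degraders were at 70.3 FPKM upon RBMS1 depletion and 57.4 FPKM in the control, or 122% of control, with a median log2 ratio of 0.10. Counting only transcripts that hold the whole of any annotated coding region of the gene, a choice made after these transcripts had been seen, their median was −0.03 and the median of all 10 genes −0.00, with 5 positive and 5 negative ratios. On that count STUB1, SPOP, HIP1R and BTRC lay between 94.5% and 98.8% of control and GSK3B at 108.6%. For STUB1 this includes STUB1-204 with its shorter coding region, and for SPOP it rests on assembled transcripts, since its reference transcripts alone gave a log2 ratio of 0.40. CMTM4 remained at 45.2% of control and CMTM6 at 122%.

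The mRNA of PD-L1 itself gives the scale for these differences. CD274 (ENSG00000120217, chr9:5450503-5470566, plus strand) was at 6.18 FPKM in RBMS1-depleted cells (interval 5.52 to 7.31) and 7.32 FPKM in the control (6.77 to 8.40), or 84.3% of control, with overlapping intervals. The log2 ratio of CD274 from all transcripts was −0.21. On that measure CMTM4 at −0.84, STUB1 at 0.40, SPOP at 0.30, CMTM6 at 0.27 and COPS5 at 0.23 lay farther from 0. The remaining genes lay nearer to 0. On the coding count, which was not made for CD274, the 9 genes other than CMTM4 lay between 94.5% and 122% of control.

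Genes that work with the 10 were set beside them in 6 lists. Of 53 genes, 49 had a mean of at least 1 FPKM, 26 with a positive and 23 with a negative ratio, and the median was 0.03. These counts include assembled transcripts. Among the genes named below, the signs of COPS7B, ATXN7L3 and CMTM3 turn without them. With assembled transcripts counted, none differed at least 2-fold, against 5.76% of all genes. From reference transcripts alone, SKP1 among the genes named below was over 2-fold higher in RBMS1-depleted cells, at a log2 ratio of 1.99, and COPS7B was at 6.93 FPKM upon RBMS1 depletion and listed at 0 in the control. Intervals lay apart and higher in RBMS1-depleted cells for 4 of the 49 genes, against 13.3% of all genes, and apart and lower for 4, against 11.5%.

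Among 14 other ligases and parts of the SCF and CUL3 ligases, 8 were positive and 6 negative, with a median of 0.14. SKP1, the adaptor that joins β-TrCP to its cullin, was at 245.4 FPKM in RBMS1-depleted and 163.4 FPKM in the control, a log2 ratio of 0.58 with intervals apart. Of the SKP1 value in control cells, 62.5% was in 1 assembled transcript with no counterpart above 10% of the gene in RBMS1-depleted cells. The coding transcript SKP1-208 was at 56.9 and 56.7 FPKM, and all reference transcripts of SKP1 together at 245.4 and 61.2 FPKM, so the size of its difference depends on the assembled transcript. CUL3, the scaffold that SPOP binds, was at 21.2 and 22.3 FPKM, the lowest ratio of the list at −0.07.

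OTUB2, a deubiquitinase of PD-L1 related to OTUB1, was lower in RBMS1-depleted cells. It was at 8.73 FPKM there and 13.2 FPKM in the control, a log2 ratio of −0.55 with intervals apart, and nearly all of it in the coding transcript OTUB2-201. Of the 6 other deubiquitinases 4 were positive and 2 negative, and USP8, an endosomal deubiquitinase, had the highest ratio at 0.36, from 9.62 and 7.29 FPKM. In these libraries OTUB2 thus differed while OTUB1 stayed at its control level.

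All 8 other subunits of the COP9 signalosome had overlapping intervals, 6 positive and 2 negative with a median of 0.05, from COPS7B at 6.93 and 8.36 FPKM to COPS8 at 16.4 and 13.1 FPKM. The control value of COPS7B was all in 1 assembled transcript and its reference transcripts are listed at 0 there. Reference transcripts alone gave COPS7B a log2 ratio of 2.99. Its direction is thus uncertain, and so are the count of 2 negative ratios, the median and the ends of this list. Of the SAGA deubiquitinase module and the paralogs of USP22, 3 of 5 genes had at least 1 FPKM and all 3 were positive with overlapping intervals. USP27X, a paralog of USP22 under that limit and named because of its values, was at 0.719 FPKM upon RBMS1 depletion and 1.17 FPKM in the control, with intervals apart. The highest was ATXN7L3, an adaptor of the module, at 17.2 and 14.7 FPKM, and the lowest was ENY2 at 86.7 and 78.6 FPKM. Without its assembled transcript ATXN7L3 had 14.1 FPKM upon RBMS1 depletion against 14.7 FPKM in the control, and its ratio turned negative (−0.06). This leaves the direction of ATXN7L3, the count of 3 positive ratios and both ends of this list uncertain.

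Among 11 further CMTM, HIP1 and trafficking genes 9 could be compared, 4 positive and 5 negative. CMTM3 had the lowest ratio, −0.30 from 2.90 and 3.79 FPKM, but reference transcripts alone gave 2.90 and 1.57 FPKM, a log2 ratio of 0.60. The direction of CMTM3 is thus uncertain, and so are its place as lowest and the count of 5 negative ratios. PDCD6IP, also known as ALIX, which sorts cargo into multivesicular bodies, had the highest, 0.32 from 49.9 and 39.8 FPKM, with intervals apart. The kinases and cofactors were the list with the most negative ratios, 8 of 9, with a median of −0.22, where 52.8% of all genes were positive. Intervals lay apart and lower for 3 of the 9, against 11.5% of all genes, namely CCND1, JAK1 at −0.28 and PRKAA2 at −0.25, the latter pair named because of their values. CCND1, the cyclin that activates CDK4, was at 83.9 FPKM in RBMS1-depleted and 102.6 FPKM in the control, a log2 ratio of −0.29 with intervals apart. NEK2, a kinase held to stabilize PD-L1, was the positive exception at 22.4 and 16.5 FPKM, a log2 ratio of 0.41 with intervals apart.

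**Figure D2:**
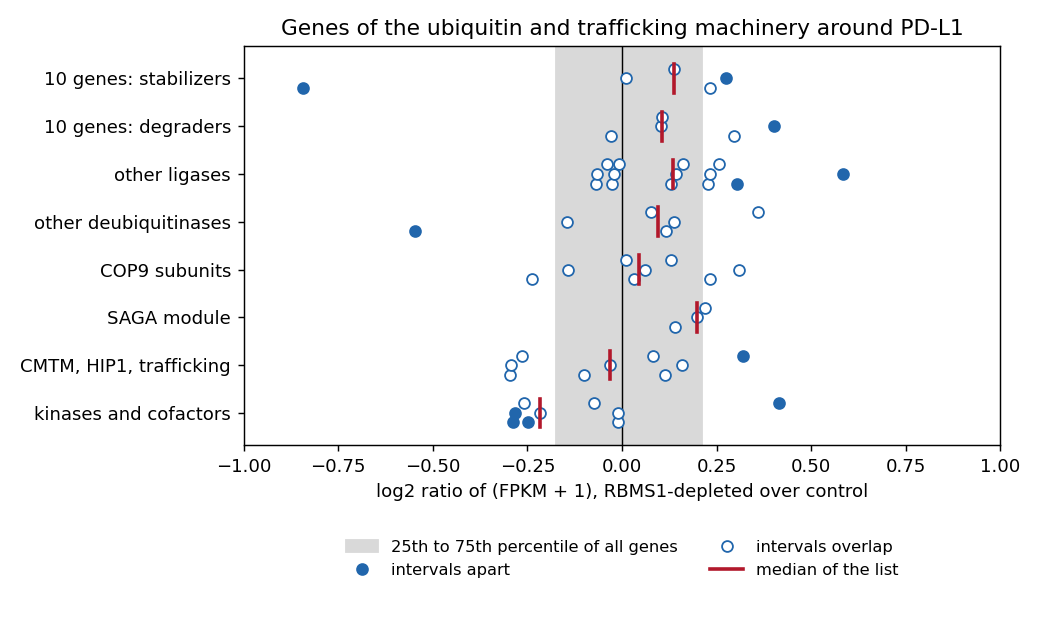
Log2 ratio of (FPKM + 1), RBMS1-depleted over control, for the 10 genes by role and for the 49 compared genes of the 6 other lists; filled points have intervals apart, red lines are list medians, and the grey band spans the 25th to 75th percentile of all genes. CMTM4 at −0.84 and OTUB2 at −0.55 lie lowest and SKP1 at 0.58 highest, and the kinases and cofactors have the lowest median at −0.22.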

How the data were processed

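Total RNA of 2 MDA-MB-231 libraries was sequenced. Per the labels, the submitters' processing notes name Bowtie2 2.0.6, TopHat2 2.0.9, Cufflinks 2.1.1 and Cuffdiff 2.1.1. The authors deposited, for each library, transcripts with FPKM, interval and coverage as Cufflinks wrote them, and a table of their comparison limited to p of at most 0.05. Its FPKM were read, and its fold changes, p-values and q-values were not used.

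Transcripts were joined to GENCODE release 29 (GRCh38) by identifier. In both libraries 98.1% started where annotated. The FPKM of a gene summed its reference transcripts and the assembled transcripts sharing at least 1 intron on the same strand. Log2 ratios had 1 FPKM added, and genes under a mean of 1 FPKM were left out (Python 3.11.15). The arithmetic alone was tested on simulated data without noise.

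The genes, lists and settings were chosen with earlier results of these data known. Named were the 10 genes, RBMS1, CD274, B4GALT1, the gene with the largest decrease and increase of each list among those above 0 in both libraries, and transcripts with at least 10% of a gene. Other genes named are markers, genes overlapping a named one, and USP27X, JAK1 and PRKAA2, which were named after their values were seen. The alternatives tried were 2 pseudocounts, 3 scalings, 4 choices of transcripts and 2 filters. Reads of near-identical or overlapping genes may be divided between them by Cufflinks.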

Additional observations from a re-analysis of the deposited data

How the results depend on the processing

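With 0.1 FPKM added in place of 1 FPKM, 1 of the 10 genes, CMTM4, differed at least 2-fold (log2 ratio −1.09) where none did before, and with 5 FPKM added its ratio was −0.42. CMTM4 was lower under all 8 alternatives that gave it a value. It has none from protein_coding reference transcripts, which are listed at 0, and none with a mean of at least 5 FPKM, which also leaves out BTRC. STUB1 was at −0.05 from protein_coding transcripts or whole coding regions, while SPOP was at −0.48 from its leading reference transcript alone, −0.07 from whole coding regions and 0.40 from protein_coding or all reference transcripts. The ratio of HIP1R ranged from −0.01 to 0.11 and changed sign under 3 of 9 alternatives, and that of OTUB1 changed sign under the 3 scalings, where 7 of the 10 ratios were positive. CMTM6, COPS5, USP22, GSK3B and BTRC kept their sign under every alternative run. The median of the degraders was −0.01 from the leading reference transcript and 0.20 with a mean of at least 5 FPKM.

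The share of CMTM4-205 becomes 100% in both libraries, and that of SPOP-202 becomes 45.3% and 100%, when only reference transcripts count. The whole-coding-region count and the rescaled intervals were chosen after seeing the data. There was no replicate to leave out, and no paired analysis was possible because each group holds 1 library. Without read counts no counting interval could be given, and the files cannot show how cultures of either kind vary.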
